A study of Arabidopsis thaliana with 2 samples.

Results

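The 9 genes described here encode ubiquitin in Arabidopsis thaliana Col-0, and they were read by full-length PacBio cDNA sequencing of floral buds. They are the polyubiquitin genes UBQ10, UBQ4, UBQ3, UBQ14 and UBQ11 and the ubiquitin fusion genes UBQ1, UBQ2, UBQ5 and UBQ6, chosen by locus tag. A read belonged to a gene when it overlapped the exons of that gene on the same strand, in the TAIR10.1 annotation. The 9 genes held 2049.7 reads in 1142 read structures, out of 499978 gene-assigned reads over 21104 genes with a read. All samples came from 1 condition, wild-type Col-0 inflorescences that held unopened floral buds, with no treatment and no mutant. There were 2 biological replicates, each 1 library made from 10 µg of total RNA, with an RNA integrity number of 9.0 in replicate 1 and 9.2 in replicate 2. Replicate 1 had 267716 aligned reads, of which 256255 were assigned to genes, and replicate 2 had 255215 and 243723. The organ identity genes AG, AP3, PI, SEP3 and AP1, which mark flowers, all had reads, with means between 73.7 and 320.1 reads per 1000000 gene-assigned reads (RPM). The root gene PYK10 had 0 reads, the stem cell regulator WUS had 6 reads in each library, and CLV3, a peptide signal of the shoot stem cells, had 0.

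Ubiquitin is a small protein that is attached to other proteins through an enzyme cascade, and chains of it mark many of them for breakdown by the proteasome. No gene encodes ubiquitin as a single finished protein. Polyubiquitin genes encode head-to-tail repeats in 1 reading frame, and fusion genes encode 1 ubiquitin in front of a ribosomal protein, L40 in UBQ1 and UBQ2 and S27a in UBQ5 and UBQ6. Deubiquitinating enzymes cut both kinds of precursor into ubiquitin units. In plants the polyubiquitin genes have an intron in the 5′ leader, and the promoters of UBQ10 and UBQ3, with that intron, are widely used to drive transgenes. UBQ5 and UBQ10 are common reference genes for quantitative PCR.

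In the reference genome every unit of the 9 genes was 76 residues, or 228 nt, long. UBQ10 had 6 units, UBQ4 had 5, UBQ3 and UBQ14 had 4 each, UBQ11 had 3 and the fusion genes had 1, which made 26 in all. All 26 units encoded the same 76 residues as the first unit of UBQ10. The fusion genes carried another 52 residues of L40 (UBQ1 and UBQ2) or 81 residues of S27a (UBQ5 and UBQ6), and the polyubiquitin genes ended in 1 or 2 extra residues. The nucleotide sequences differed far more than the protein. Units of different genes were 76.8% to 97.4% identical (median 81.1% over 285 pairs), and units within UBQ10 were 78.9% to 93.0% identical. The closest units joined UBQ10, UBQ14 and UBQ11, with 95.6% to 97.4% at best between any 2 of them, and UBQ4 with UBQ3 at 95.2%. The longest stretch without a difference between the spliced transcripts of 2 genes was 107 nt, between UBQ10 and UBQ11, and UBQ4 and UBQ3 shared 70 nt. UBQ10 also repeated 62 nt exactly within its own coding sequence.

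Few reads of these genes had a count that showed a split among alignments, despite these repeats. The authors' counts split a read among its alignments, which leaves counts that are not whole numbers. Such counts made up 0.141% ± 0.136 (SD, n = 2) of the reads of the 9 genes, against 0.605% ± 0.0313 of all nuclear reads, and the 9 genes had 0.0446% in replicate 1 and 0.237% in replicate 2. They came to 2.7 reads in all, in UBQ14 (1.25 reads), UBQ6 (0.7), UBQ11 (0.5) and UBQ2 (0.25). UBQ10, UBQ4, UBQ3, UBQ1 and UBQ5 had none. Split reads whose parts add up to a whole number in 1 structure would not show.

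Levels are given as RPM with an exact 95% Poisson interval per library. A long read stands for 1 cDNA molecule, so RPM was not divided by length. Spliced lengths, from the main capped start to the main 3′ end, ran from 542 nt (UBQ2) to 1601 nt (UBQ10). The effect of length on cDNA recovery was not tested. These intervals cover counting error only. Floral buds hold many cell types, so fewer cells of a type and less RNA per cell cannot be told apart.

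UBQ10 (AT4G05320, chr4:2717977-2720308, plus strand), the longest polyubiquitin gene, had the highest level of the 9 at 1022 RPM (902 to 1154) in replicate 1 and 935 RPM (818 to 1065) in replicate 2. UBQ3 (AT5G03240, chr5:771660-773515, minus strand) had 546 and 579 RPM. UBQ11 (AT4G05050, chr4:2588004-2589437, minus strand) had 484 and 412 RPM. These 3 polyubiquitin genes agreed between libraries within their counting intervals. UBQ14 (AT4G02890, chr4:1278530-1280166, minus strand) had 317 RPM (251 to 393) in replicate 1 and 193 RPM (142 to 256) in replicate 2, a ratio of 1.64 and the largest among the 9. UBQ4 (AT5G20620, chr5:6973053-6975009, minus strand) was lowest, at 121 and 131 RPM, although it encodes 5 units. Level and number of units therefore did not run in parallel among the polyubiquitin genes, and UBQ4 lay 7.76 times below UBQ10.

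Within each fusion pair 1 gene held most of the reads. UBQ1 (AT3G52590, chr3:19505379-19506932, plus strand) had 855 and 747 RPM, and its L40 partner UBQ2 (AT2G36170, chr2:15172061-15173340, plus strand) had 145 and 115 RPM. UBQ5 (AT3G62250, chr3:23037018-23038009, plus strand) had 695 and 550 RPM, and its S27a partner UBQ6 (AT2G47110, chr2:19344635-19345345, plus strand) had 191 and 146 RPM. The ratio of the means was 6.15 for UBQ1 over UBQ2 and 3.69 for UBQ5 over UBQ6, and in both pairs the replicates did not overlap. Summed over a pair, L40 fusions reached 931 ± 97.8 RPM and S27a fusions 791 ± 134.0 RPM (SD, n = 2).

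By mean level the order was UBQ10 (979 ± 61.5 RPM, rank 87 of 21104 genes), UBQ1 (801 ± 76.3, rank 110), UBQ5 (622 ± 102.4, rank 171), UBQ3 (562 ± 22.8, rank 203), UBQ11 (448 ± 50.6, rank 266), UBQ14 (255 ± 87.8, rank 581), UBQ6 (169 ± 31.6, rank 988), UBQ2 (130 ± 21.6, rank 1367) and UBQ4 (126 ± 7.30, rank 1419). The replicate ranges overlapped for UBQ5 with UBQ3 and for UBQ2 with UBQ4, so those neighbours did not differ beyond their spread. By counting error alone 7 of the 8 neighbouring pairs overlapped in both libraries, and only UBQ11 and UBQ14 were apart. Replicate 1 had the higher RPM in 7 of the 9 genes, and UBQ4 and UBQ3 were the exceptions. With only structures of at least 2 reads the order changed. UBQ3 (1591 RPM) stood above UBQ5 (1370 RPM), UBQ4 (256 RPM) above UBQ2 (126 RPM), and UBQ6 (48.2 RPM) was last. The ratio of UBQ5 over UBQ6 was then 28.4, and that of UBQ1 over UBQ2 was 14.5. The 9 genes summed to 4376 RPM in replicate 1 and 3808 RPM in replicate 2.

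**Figure D1:**
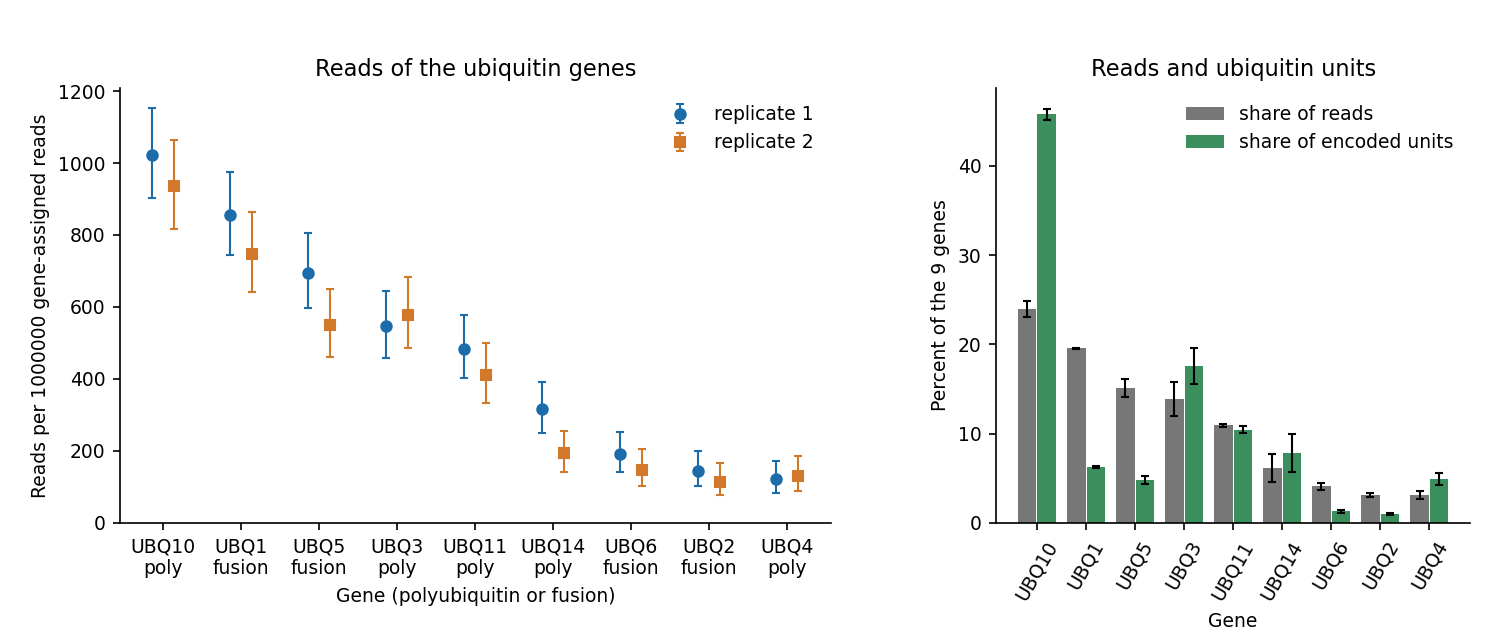
Left, reads per 1000000 gene-assigned reads of each gene in both libraries, with 95% Poisson intervals, from UBQ10 (1022 and 935 RPM) down to UBQ4 (121 and 131 RPM). Right, share of reads and of encoded ubiquitin units that each gene holds among the 9 (bars are means and error bars SD, n = 2), with UBQ10 at 24.0% of reads and 45.8% of units.

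Counting units rather than reads changed the weight of the genes. Each read was multiplied by the number of ubiquitin units its gene encodes, which assumes an intact transcript. Polyubiquitin genes held 58.0% ± 1.54 of the reads and 86.6% ± 0.788 of the encoded units (SD, n = 2), and fusion genes held 42.0% ± 1.54 of the reads and 13.4% ± 0.788 of the units. UBQ10 alone held 45.3% of the units in replicate 1 and 46.2% in replicate 2. UBQ3 followed with 16.2% and 19.05%, then UBQ11 with 10.7% and 10.2%. UBQ1, second by reads, held 6.32% and 6.15% of the units. UBQ4, last by reads, held 4.47% and 5.40%, above both UBQ2 (1.07% and 0.946%) and UBQ6 (1.41% and 1.21%).

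All 5 polyubiquitin genes had 1 intron in the 5′ leader that ended directly before the start codon, and the reads spliced it nearly without exception. The last 15 bases of the intron and the first 15 bases of the coding sequence are shown because they place the splice site against the start codon. Capitals mark the AG that ends the intron, and the atg that follows is the start codon (TAIR10.1).
UBQ10, chr4:2718544-2718573, plus strand: ttttctgattaacAGatgcagatctttgtt
UBQ11, chr4:2588946-2588975, minus strand: ttttctgattaacAGatgcagatcttcgtt
UBQ14, chr4:1279650-1279679, minus strand: ttttgtgaattacAGatgcagatctttgtt
UBQ3, chr5:772882-772911, minus strand: attgttttatttcAGatgcaaatcttcgtg
UBQ4, chr5:6974449-6974478, minus strand: tctcttccttcgcAGatgcaaattttcgtg

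UBQ10 spliced its 304-nt leader intron in 225 of 225 spanning reads in replicate 1 and 194 of 195 in replicate 2. UBQ4 spliced its 385-nt intron in 30 of 30 and 29 of 29 reads. UBQ3 spliced 375 nt in 126 of 127 and 127 of 130 reads. The 4 remaining UBQ3 reads also had a gap there, not at the annotated sites. UBQ14 spliced 297 nt in 66.25 of 67.25 and 38 of 38 reads, and UBQ11 spliced 334 nt in 115 of 115 and 83.5 of 85.5 reads. Of 1041.75 spanning reads over the 5 genes, 1033.75 were spliced exactly, 6 had another gap and 2 had none, 1 in UBQ14 and 1 in UBQ11. The share was 99.6% (Wilson 95% interval 98.7 to 99.9) in replicate 1 and 98.7% (97.3 to 99.4) in replicate 2, or 99.2% ± 0.638 (SD, n = 2). All 5 genes were spliced in at least 95% of the reads, against 62.7% of the 1130 genes with an annotated leader intron and at least 20 spanning reads, whose median was 96.6%. The TAIR10 junctions had been given to the aligner, so the exact sites were not found independently of the annotation.

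The annotation holds 4 further introns that reach from the leader of UBQ10, UBQ3 or UBQ11, with another donor or acceptor. None of them had a read, among 420, 258 and 200.5 spanning reads in these genes. In 7 reads the 5′ end lay inside the leader intron itself, and 1 of these, in UBQ3, had the cap label. The coding introns of UBQ1 and UBQ2, 4 in each, were spliced in 96.4% to 100% of the spanning reads. UBQ6 has an annotated 52-nt intron in the 3′ UTR, and 0 of 83.7 spanning reads spliced it. UBQ5 has no annotated intron.

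**Figure D2:**
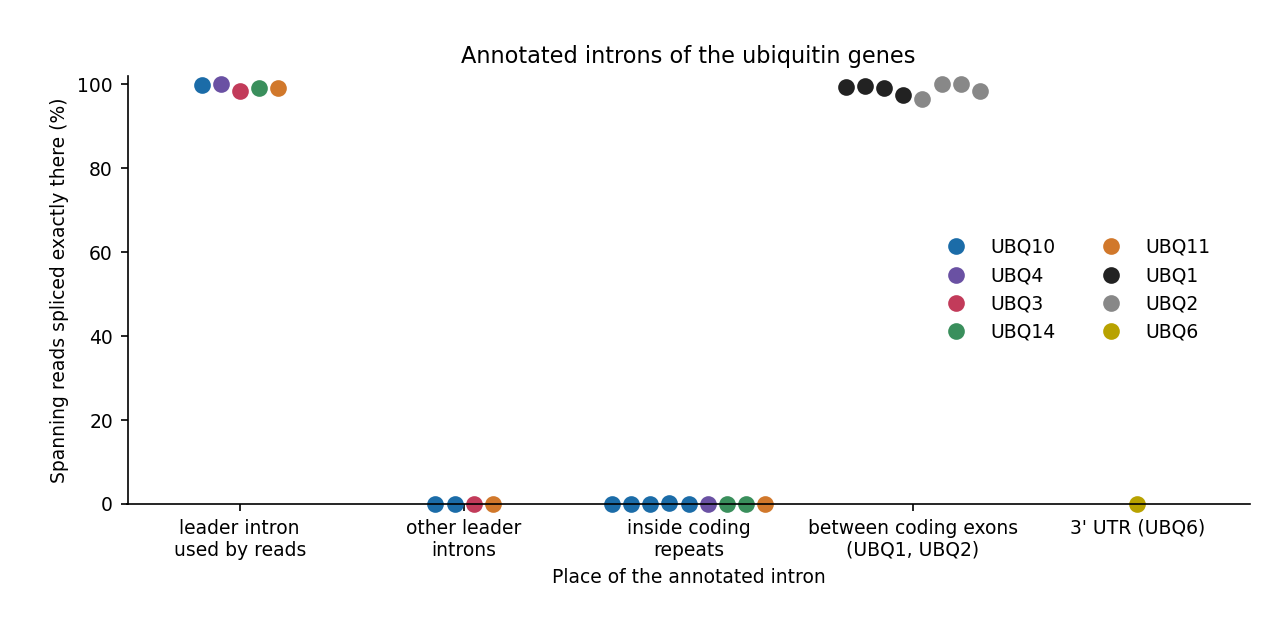
Each point is 1 of the 27 annotated introns of the ubiquitin genes, placed by class and coloured by gene, and its height is the percent of spanning reads of both libraries that spliced exactly there. The 5 used leader introns lie between 98.4% and 100% and the 8 introns of UBQ1 and UBQ2 between 96.4% and 100%, whereas the 9 introns inside coding repeats, the other 4 leader introns and the UBQ6 intron lie between 0 and 0.222%.

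The annotation also places 9 introns inside the coding repeats of UBQ10, UBQ4, UBQ14 and UBQ11. Each removes a whole number of units, 1 unit in 7 cases and 2 or 4 units in UBQ10. Only 4 of the 9 begin with GT and end with AG. A gap of exactly 1 unit joins equal positions of 2 repeats, so bases on both sides are alike and the gap can slide. The edges of the single such intron that a read used, a 228-nt intron of UBQ10 at chr4:2719063-2719290, plus strand, are shown with 15 bases on each side of each edge. Capitals mark bases that the gap can slide over.
UBQ10 upstream edge, chr4:2719048-2719077, plus strand: actATCACTTTGGAGGTGGAGAGTTCTGAC
UBQ10 downstream edge, chr4:2719276-2719305, plus strand: accATCACTTTGGAGGTGGAGAGTTCTGAC
This gap could be placed anywhere within 56 nt, beyond both windows. The other 8 annotated repeat introns had 0 reads among 60 to 472 spanning reads each.

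Reads with any gap inside the repeats were few. There were 7 such reads, 5 in UBQ10, 1 in UBQ3 and 1 in UBQ11, each with a different gap. In 6 of the 7 the gap came within 6 nt of whole units, and in 3 it was exactly 1 unit. The gaps could slide over 1 to 56 nt, and 1 of the 7 began with GT and ended with AG. The exception to the unit length was a 198-nt gap in UBQ3. In replicate 2, 1 more UBQ10 read and 1 more UBQ11 read joined the leader donor to a point inside the repeats, 988 and 562 nt further on.

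Among reads that spanned the longest annotated coding exon, 1 of 568.25 polyubiquitin reads (0.176%) had a gap inside it in replicate 1. In polyubiquitin genes this exon is the whole coding sequence. In other genes with a coding exon of at least 690 nt, 836.2 of 48056 reads (1.74%) had such a gap in replicate 1. In replicate 2 the values were 5 of 480.5 reads (1.04%) and 944.2 of 54268 reads (1.74%). Fisher's exact test, two-sided and run on each library alone, gave p = 0.0106 in replicate 1 and p = 0.788 in replicate 2 after Benjamini-Hochberg adjustment over 11 tests. The test compares reads of 1 library and not replicates. With both libraries pooled, 1 of the 5 polyubiquitin genes, UBQ10 (1.18%), reached 1% of its spanning reads, against 17.5% of 951 genes. By library UBQ10 had 0.439% in replicate 1 and 2.04% in replicate 2. UBQ10 and UBQ3, 2 of the 5, had at least 1 such read, against 22.2% of those genes. The 5 genes are too few to set these shares apart from those of other genes. UBQ4 had 0 of 60 spanning reads, which allows a share of up to 5%, UBQ14 had 0 of 106.25 (up to 2.82%) and UBQ11 had 0 of 200.5 (up to 1.496%).

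Some of the other genes spliced an annotated intron there in nearly every read. These were CAT3 (98.6% of 284.5 spanning reads), SYTA (96.8% of 95) and XYL4 (93.6% of 110), with an intron inside their longest annotated coding exon. Without them and the next 2 genes the shares in replicate 1 were 0.176% in polyubiquitin genes and 1.26% in other genes. Fisher's exact test gave p = 0.0121 there, without adjustment. In replicate 2 the shares were 1.04% in polyubiquitin genes and 1.23% in other genes, and the same test found no difference. With annotated introns left out, a setting chosen like the one before after seeing the data, they were 0.176% and 0.876% in replicate 1 (Fisher's exact p = 0.103) and 0.832% and 0.748% in replicate 2 (p = 0.786). The polyubiquitin share of replicate 1 rests on 1 read in all these settings. All 6 spanning reads with a gap had the cap label and the 3′ label, and 1 and 5 reads are too few to set their labels apart from those of other reads (Fisher's exact, adjusted p = 0.788 to 1).

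Transcription starts were read from the cap label, a 5′ label with an upstream untemplated G that reverse transcription adds at a capped RNA end. In UBQ10, 235 of 277 capped reads (84.8%) began at a single base 66 nt before the start codon, counted without the intron. UBQ11 had 132 of 147 (89.8%) at 66 nt, and UBQ14 had 54 of 57 (94.7%) at 67 nt. The sequences around these starts are shown because the 3 genes were nearly alike there. Each runs from 10 bases before to 19 bases after the main start, which is in capitals.
UBQ10, chr4:2718179-2718208, plus strand: cttcttcttcAcaattcagatttcaatttc
UBQ11, chr4:2589341-2589370, minus strand: cttcttcttcAcaattcagattccaatttt
UBQ14, chr4:1280009-1280038, minus strand: attcttcttcAcaaattcagattccaaatt
UBQ3, chr5:773336-773365, minus strand: ataataattcAtcctttcgtctttttctga
UBQ5, chr3:23037115-23037144, plus strand: ttcagcagccGttgcctcaaaagatgcaga
UBQ10 and UBQ11 were identical at 93.3% of these 30 bases. UBQ14 matched each of them at 63.3% when set base against base, with no gap allowed. The other 33 pairs among the 9 genes reached at most 46.7%.

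UBQ3 began at 1 base in 163 of 198 capped reads (82.3%), 84 nt before the start codon, and UBQ4 in 26 of 40 (65.0%), 95 nt before it. The fusion genes had shorter leaders and a smaller share at their most used base. UBQ5 had the shortest leader, 13 nt, at 113 of 214 capped reads (52.8%), UBQ1 one of 26 nt at 136 of 259 (52.5%), and UBQ2 one of 36 nt at 21 of 40 (52.5%). UBQ6 was the most dispersed, with its most used base at 10 of 52 capped reads (19.2%), 33 nt before the start codon, and the middle 90% of its starts spread over 49 nt. Counted within 10 nt of the main site the order was another one. UBQ1 had 99.6% and UBQ5 98.75% of its capped starts there, against 98.2% in UBQ10, 97.98% in UBQ3, 95.7% in UBQ14, 93.9% in UBQ11 and 88.5% in UBQ4. UBQ2 also rose, to 87.6%, just below UBQ4. UBQ6 was lowest with 35.6% at its site with the most merged reads. The middle 90% of starts covered 6 nt in UBQ1 and 7 nt in UBQ5, against 3 nt in UBQ11 and 32 nt in UBQ14. Over 2989 genes with at least 20 capped reads the median share at the most used base was 39.4% (quartiles 27.3% and 56.8%). All 5 polyubiquitin genes lay above the upper quartile, UBQ1, UBQ2 and UBQ5 lay between median and upper quartile, and UBQ6 lay below the lower quartile.

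The main capped base lay 33 to 263 nt inside the outermost annotated 5′ end, farthest in UBQ1 (263 nt) and UBQ10 (212 nt). In UBQ10 and UBQ14 it coincided with the annotated 5′ end of another transcript model. A TATA motif, spelled TATAAA or TATATA and searched on the strand of the gene with its first base 20 to 45 nt before the start, was found in 7 of the 9 genes, 32 to 35 nt upstream. UBQ5 and UBQ6, the S27a pair, had none. Over 2989 genes 33.3% had one. The start itself was a purine after a pyrimidine in all 9 genes, against 92.5% of genes.

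**Figure D3:**
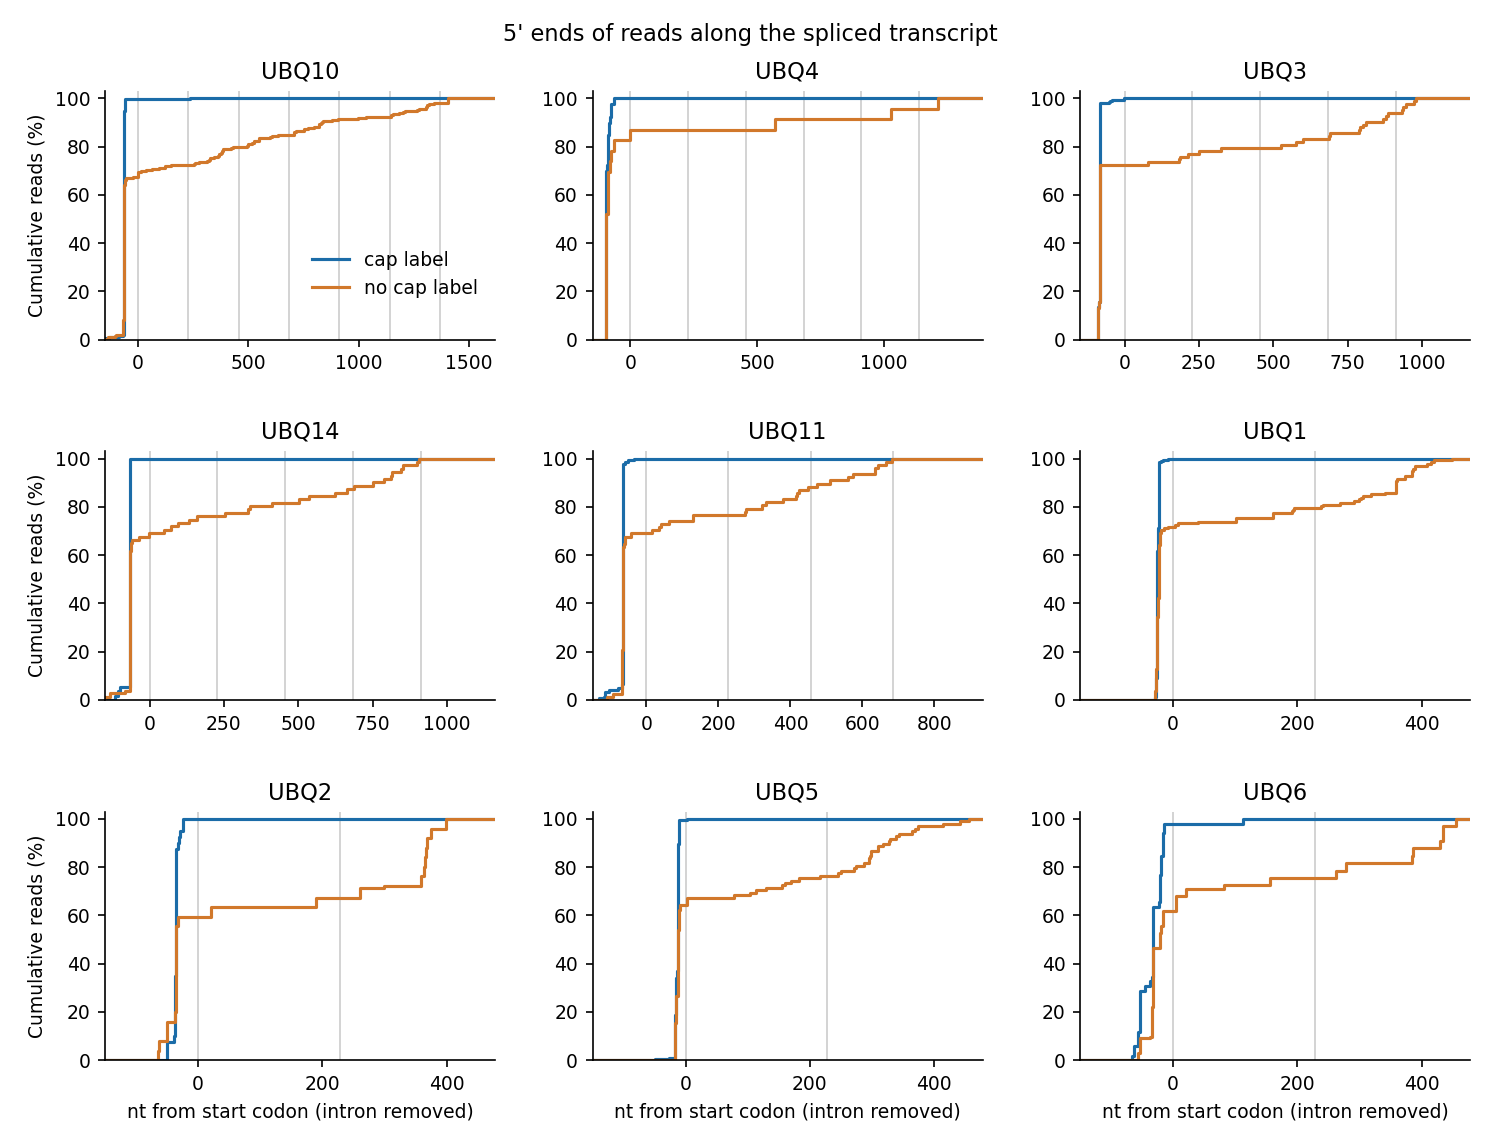
Cumulative percent of read 5′ ends along the spliced transcript of each gene, in nt from the start codon, for reads with and without the cap label (both libraries pooled). Grey lines mark the edges of the ubiquitin units. The capped curves rise almost entirely at 1 step before the start codon, with 94.7% at 1 base in UBQ14 and the widest spread in UBQ6, whereas the uncapped curves also climb through the coding units.

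The cap label was on 62.8% ± 2.44 of the reads of the 9 genes, at 61.1% in replicate 1 and 64.5% in replicate 2, against 56.6% ± 1.00 of all nuclear reads (SD, n = 2), at 55.9% and 57.3%. UBQ3 had the highest share, 70.5% ± 2.67, and UBQ14 the lowest, 44.9% ± 2.64. The median gene of 5508 with at least 20 reads had 58.8%. UBQ14 lay below the lower quartile of genes, 51.02%, in both libraries, at 43.1% (Wilson 95% interval 33.0 to 54.1) and 46.8% (33.3 to 60.8). Both intervals include that quartile. Of the 64 UBQ14 reads with a 5′ label but no untemplated G, 41 (64.1%) began within 10 nt of the main capped start. In the other 8 genes the same share ran from 16.7% in UBQ6, where the site with the most merged reads was used, to 74.0% in UBQ1.

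Most reads covered the gene from before the start codon to past the stop codon. Reads that spanned the whole coding sequence made up 88.3% ± 0.813 of all reads of the 9 genes, from 82.4% ± 2.23 in UBQ14 to 95.3% ± 2.14 in UBQ4. A 5′ end inside the coding sequence was seen in 220.75 reads (10.8% ± 0.631), and 3 of these had the cap label, 1 each in UBQ5, UBQ6 and UBQ10. In UBQ10 such ends fell in every unit, with 6, 17, 11, 14, 2 and 12 reads in units 1 to 6. The poly(A) side was labelled in 98.98% ± 0.0710 of the reads, against 87.5% ± 0.224 of nuclear reads.

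The 3′ ends differed more in spread. UBQ3 ended within 10 nt of 1 site in 94.9% ± 0.0258 of its labelled reads (SD, n = 2), with the most used base 212 nt after the stop codon, and UBQ4 in 85.5% ± 16.0, at 202 nt. The main UBQ4 site held 74.2% in replicate 1 and 96.9% in replicate 2, and a second site at 244 nt held 12.7% of its labelled reads. The last 30 bases before the most used end of UBQ3 and of UBQ4 are shown because they were the closest match among the 9 genes.
UBQ3, chr5:771764-771793, minus strand: caactctcaataataatccaagtgcatgtt
UBQ4, chr5:6973113-6973142, minus strand: caacttttaataataatccaagtgcatgtt
They were identical at 93.3% of the bases and ended at the same base. No other pair passed 50%. The motif AATAAA with its first base 10 to 40 nt before the end was found in 0 of the 9 genes, against 12.8% of 4803 genes.

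UBQ10 ended mainly 161 nt after the stop codon (74.8% ± 2.53), with a second site at 107 nt that held 11.96% of its labelled reads. UBQ14 ended at 172 nt (74.9% ± 0.665). UBQ5 used 155 nt (62.9% ± 0.759) and 166 nt (18.9%). UBQ11 used 128 nt (53.1% ± 0.423) and 173 nt (24.9%), UBQ1 used 134 nt (52.1% ± 4.52) and 165 nt (28.3%), UBQ6 used 129 nt (58.4% ± 10.5) and 165 nt (21.5%), and UBQ2 used 119 nt (44.2% ± 1.97) and 136 nt (41.4%). Sites this close depend on the merging distance. Within 25 nt the main site held 86.7% in UBQ2, 85.5% in UBQ5, 75.6% in UBQ6, 67.1% in UBQ1 and 57.2% in UBQ11, beside 77.1% in UBQ10 and 80.5% in UBQ14. All main ends lay 42 to 243 nt inside the outermost annotated 3′ end. In UBQ10 the main end coincided with the annotated 3′ end of another transcript model, and in UBQ14 and UBQ3 it lay 2 and 12 nt from one.

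**Figure D4:**
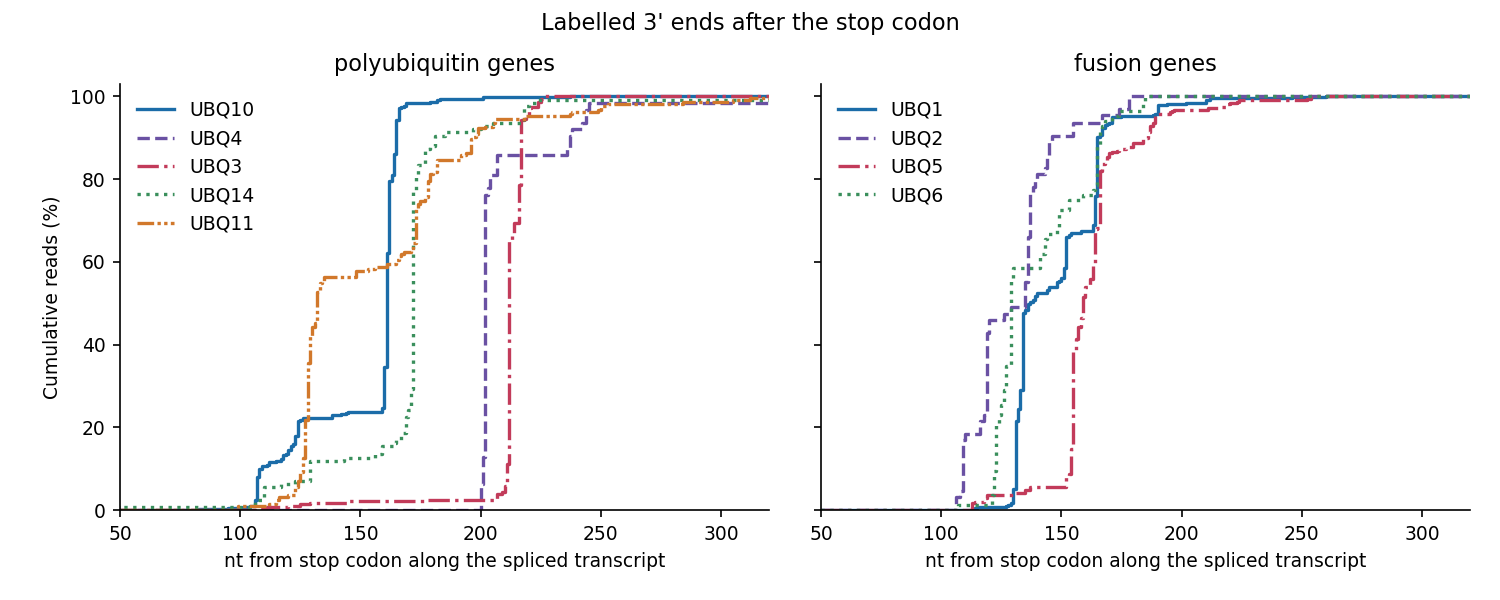
Cumulative percent of labelled 3′ ends against the distance from the stop codon in nt, for polyubiquitin genes (left) and fusion genes (right), both libraries pooled. UBQ3 rises in nearly 1 step at 212 nt, and UBQ4 rises mainly at 202 nt with a smaller step at 244 nt (12.7%). UBQ11, UBQ1 and UBQ2 rise in 2 or more steps.

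Among the listed other genes of the ubiquitin system, mean levels ran between 0 and 621 RPM. Of 6 further ubiquitin and ubiquitin-related genes 3 had a read. UBQ7 and RUB1, which each fuse ubiquitin to the ubiquitin-like protein RUB, had 66.3 and 82.1 RPM and 54.6 and 24.6 RPM in replicates 1 and 2. UBQ8 had 1 read, in replicate 2. UBQ9, UBQ12 and UBQ13 had 0 reads, which allows up to 11.7 RPM in replicate 1 and 12.3 RPM in replicate 2. Both E1 activating enzymes, which charge ubiquitin, were read, UBA1 at 58.1 ± 4.89 RPM and UBA2 at 26.2 ± 9.41 RPM (SD, n = 2). All 6 listed E2 conjugating enzymes were read, at 75.6 to 621 RPM, and UBC10, with 704 and 537 RPM, was the highest and close to UBQ5. The 8 listed deubiquitinating enzymes, which recycle ubiquitin and cut its precursors, had 13.9 to 72.6 RPM. The 16 enzymes together summed to 1779 ± 125.0 RPM, against 4092 ± 402 RPM for the 9 ubiquitin genes.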

How the data were processed

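Total RNA of Col-0 floral buds was sequenced as PacBio Iso-Seq cDNA in 2 libraries. Per the study's methods, the authors built consensus reads with ccs (at least 2 passes), trimmed them with lima, kept reads with a poly(A) tail (isoseq3 refine), aligned them to TAIR10 with minimap2 given TAIR10 junctions, and stored read structures with Bookend; tool versions are not given in the sources used here. The deposited values are expected counts of reads per structure, with end labels. Each read was assigned to the gene with the largest exonic overlap on its strand in TAIR10.1, whose nuclear coordinates are those of TAIR10; mitochondrial genes were not used here. RPM is reads per 1000000 gene-assigned reads. No low-count filter was applied. Gene shares needed at least 20 reads, and ends within 10 nt of a larger site were merged. Intervals are 95% Wilson or Poisson intervals. The upper limits given for 0 reads are instead 3 counts divided by the total. Fisher's exact tests on rounded counts were two-sided, within each library, at a threshold of 0.05. Only 1 condition exists, so no groups were compared and values are given as mean ± SD of the 2 replicates. All 9 members and the listed pathway and marker genes were named. Members, lists and tests were chosen with earlier results of these data known. Counters were tested on simulated reads. Python 3.11.15, numpy 2.4.6, scipy 1.17.1 and matplotlib 3.10.9 were used.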

Additional observations from a re-analysis of the deposited data

Results flagged for a closer look

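Reads on the opposite strand over the exons of UBQ1 came to 27, 16 in replicate 1 and 11 in replicate 2, whereas the other 8 genes had 0. This signal lies outside the sense-strand reads that were described. All 27 were assigned to the convergent neighbour CWINV2 (AT3G52600), and they overlapped the annotated 3′ end of UBQ1 by at most 48 nt. Of these 27 reads, 20 had the cap label and 27 the 3′ label. Of the 401 UBQ1 reads, 7 ended at or past the 3′ end of the opposite-strand read that reached farthest into the gene.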

How the results depend on the processing

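No paired analysis was possible because all samples belong to 1 group. Of the alternatives for the main values other than leaving out a replicate, 23 kept the value within the replicate SD or the test on its side of the threshold. Another 5 moved the value by more, and 1 test result grew weaker, 1 grew stronger and 1 reversed in sign. For single genes 94 kept the value within the replicate SD and 41 moved it by more. With 2 replicates, leaving out either gives the value of the other library, which lies within 1 SD of the mean by construction and says nothing of stability. By library the share of fractional counts was 0.0446% and 0.237%, and that of gaps inside the repeats 0.176% and 1.04%. The summed level of the 9 genes was 9134 RPM with structures of at least 2 reads only, against 4092 RPM with all. UBQ10 was then at 2598 RPM, against 979, and UBQ6 at 48.2 RPM, against 169. The filter only removes reads, so higher values reflect the smaller total of remaining reads that RPM is divided by. Why UBQ6 fell was not tested. The share of capped starts at the main site was 98.2% with merging within 25 nt and 84.4% over all labelled 5′ ends, against 94.7%. For 3′ ends merging within 25 nt gave 77.8%, against 67.7%. The cap share was 71.0% among coding-spanning reads, against 62.8%. The gap share of polyubiquitin genes minus that of other genes was -1.56 percentage points in replicate 1 and -0.70 in replicate 2. It became -0.70 and 0.085 with unannotated gaps only. With any gap that touches the coding exon it became -4.80 and -3.59 (Fisher's exact p = 5.53e-05 in replicate 2, without adjustment). These 2 alternatives, and leaving out the 5 other genes of highest share, were chosen after seeing the data. The touching setting also counts gaps that reach in from neighbouring exons. The coding sequence of polyubiquitin genes is 1 exon, so only the leader or 3′ UTR can add such gaps. The 2 sides are unlike there, so no conclusion is drawn from that setting. The order of neighbouring genes and all gap shares are limited by depth, at 28 to 262 reads per gene and library.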
